A study of Bos taurus with 18 samples.

Results

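The response of bovine endometrial epithelial cells (bEECs) to recombinant bovine CAPG (rbCAPG) was described from 6 RNA sequencing samples, chosen by their labels alone from the 18 samples of the series: 3 bEEC samples with rbCAPG and 3 bEEC vehicle control (VC) samples. The cells were grown in an endometrium-on-a-chip, a 3D microfluidic device in which medium flowed over the bEECs with stromal cells of the bovine endometrium (bESCs) behind a porous membrane. The medium carried rbCAPG at 1 µg/mL, recombinant bovine PDI (rbPDI) at 1 µg/mL, or the PBS vehicle alone, for 24 h. The cells of all groups were unmodified primary cells from late luteal uterine tracts collected at an abattoir, with no breed, age or allele given in the labels. Samples 1, 2 and 3 of every group came from 3 animals, and both cell types of 1 device came from 1 animal, so VC and rbCAPG samples were compared within animals. Several limits apply to this model: the cell types were separated by differential trypsinization and so enriched rather than purified, cells of 1 animal stand for each replicate, the late luteal cells came from tracts with no conceptus, and 1 dose and 1 time were measured. The 3 bEEC samples with rbPDI and the bESC samples with VC or rbCAPG (3 each) are used only where the response of the bEECs is set against them.

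CAPG, or macrophage-capping protein, belongs to the gelsolin family and caps the barbed ends of actin filaments inside cells. It is also among the proteins that the ruminant conceptus secretes into the uterine lumen around the time when pregnancy is recognised, and the epithelium is the first maternal layer to meet it. Luminal and glandular epithelial cells of the endometrium secrete into and absorb from the uterine lumen, form the barrier that the trophoblast attaches to, and act as sentinels that call leukocytes with chemokines and cytokines. Many of those immune genes are targets of nuclear factor kappa B (NF-kB), a family of transcription factors that inhibitor proteins hold in the cytoplasm and that, once released, induces its own inhibitors among its targets.

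The bEEC samples held 28206464 to 38124690 counts with VC and 34437801 to 36622769 counts with rbCAPG. Levels are given in CPM, the count of a gene relative to the total of its library after TMM normalization, which cannot be compared between genes because they take no account of gene length. The TMM factors ran from 0.7026, in the rbCAPG sample of animal 1, to 1.174, in the VC sample of the same animal. Gene symbols were known only for 190 genes that the study had listed as altered by rbCAPG in bEECs or in bESCs, so the names are not an independent choice of genes, and CAPG's own gene was not analysed here. Among the epithelial markers, MUC1 was at 236 to 443 CPM in VC bEECs and at 0.0881 to 0.321 CPM in VC bESCs, and OCLN was at 85.6 to 105 CPM and at 0.227 to 0.308 CPM. Those 2 genes and AGR2 were the epithelial markers with a known identifier, of 12 looked for, and all were near 0 in VC bESCs.

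Exposure to rbCAPG raised far more transcripts than it lowered. Of 17931 genes tested, 365 were higher with rbCAPG (2.04% of those tested) and 27 were lower (0.151%), at an adjusted p-value under 0.05 and a change of more than 2-fold (log2 fold change beyond 1). The median log2 fold change was 1.91 among the raised genes (1.00 to 11.49) and -1.53 among the lowered genes (-4.92 to -1.05), against 0.02 over all genes tested. With 6 raised genes that had no count in any VC sample set at their lower bound, the median of the raised genes was 1.89. In bulk RNA, a change in the number of cells of one type and a change in RNA per cell cannot be told apart.

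The raised genes moved together in the 3 animals. Of the 365, 364 were higher with rbCAPG in each animal, and all 27 lowered genes were lower in each animal, which the test with the animal as a block favours by its construction. The median log2 ratio of the raised genes within animals 1, 2 and 3 was 1.74, 1.38 and 2.02, and that of the lowered genes was -1.50, -1.41 and -1.49 (0.1 CPM added to both levels). The 3 rbCAPG samples all lay above the 3 VC samples for 314 of the 365 raised genes, and all below for 14 of the 27 lowered genes. Over all genes tested, 1564 (8.72%) had all rbCAPG samples above the VC samples and 1191 (6.64%) had all below, a split that turned to 707 above and 1845 below when samples were scaled by library size only. That scaling moved the median log2 fold change of all genes to -0.18, and it left 220 genes raised and 41 lowered.

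Raised genes were spread over all levels of expression. Among genes with a mean VC level under 1 CPM, 130 of 4777 were raised, with 135 of 5170 at 1 to 10 CPM, 79 of 6469 at 10 to 100 CPM and 21 of 1515 above 100 CPM. The lowered genes were found mainly at middle and high levels, with 1, 9, 14 and 3 genes in the same bins. Summed over the 365 raised genes, the level was 7541, 12326 and 9144 CPM in the VC samples of animals 1, 2 and 3 and 47929, 43677 and 51917 CPM with rbCAPG. Symbols were known for 190 of the genes tested, of which 142 were raised and 2 lowered. The counts of raised genes in the gene lists below all come from these 190. A list count near 142 of 190 therefore says nothing particular about that list. Of the 147 named genes that the study had listed for this same comparison, 122 were raised and 2 lowered, which is not independent evidence. Of 43 named genes that it had listed only for the bESCs, 20 were raised in the bEECs and none lowered, with 34 log2 fold changes above 0 (edgeR).

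**Figure D1:**
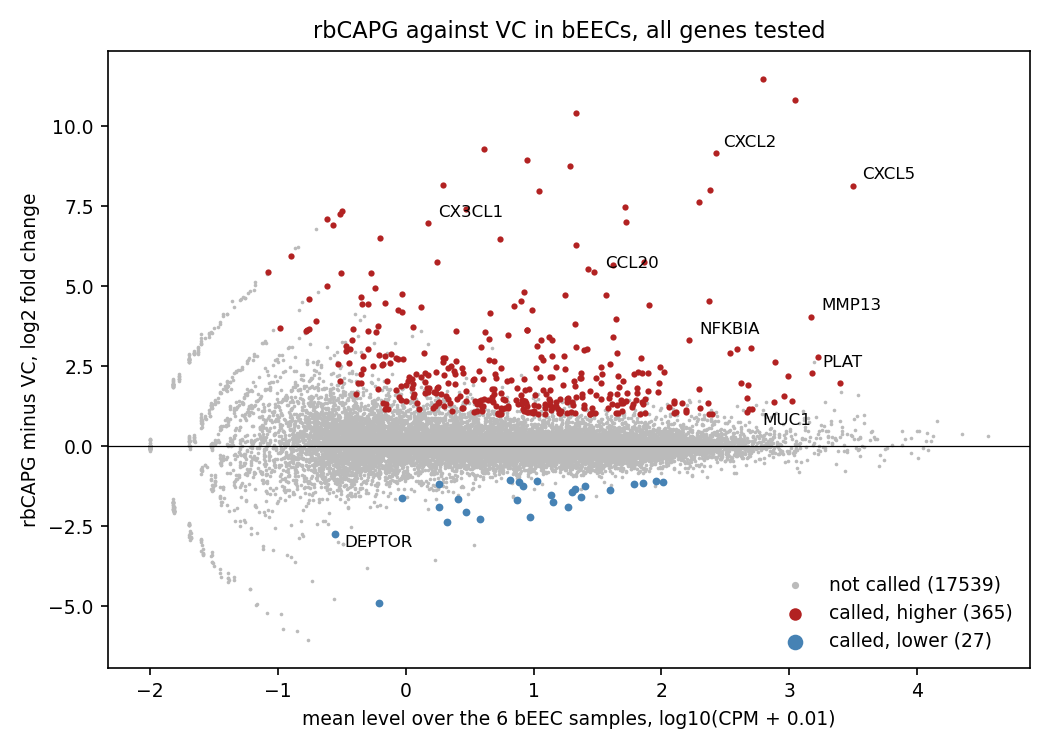
Log2 fold change between rbCAPG and VC bEECs (vertical axis) against the mean level over the 6 samples, as log10 of CPM + 0.01 (horizontal axis), for each of 17931 genes tested, with 365 raised genes in red, 27 lowered genes in blue and all others in grey. The raised genes reach a log2 fold change of 11.49 and lie at all levels, while the lowered genes reach -4.92. Points on the curved lines at the far left are genes with counts in few samples, whose fitted fold changes depend on the prior count.

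The count of raised and lowered genes depended on single samples. It was 392 with all samples, and 146 without the VC sample of animal 3, 158 without the rbCAPG sample of animal 3, 184 without the rbCAPG sample of animal 1, 186 without the VC sample of animal 1, 277 without the rbCAPG sample of animal 2 and 370 without the VC sample of animal 2. With both bEEC samples of animal 1 and its rbPDI bEEC sample left out, 122 genes were raised and 2 lowered. Without the animal as a block, 92 genes passed, all of them raised and 91 of them among the 392. Of the 65 named genes that passed, 33 passed with any 1 of the 6 samples left out. Those were CXCL2, CXCL5, NFKBIZ, CXCL3, ZC3H12A, GRO1, CYRIA, CD40, NFKBIA, TNFAIP2, PLEKHS1, FERMT1, CX3CL1, RIPPLY3, ENSBTAG00000001321, ENSBTAG00000049589, ENSBTAG00000015493, CCL20, CCL5, CSF3, TNFRSF9, IL18R1, MAP3K8, PTGS2, ALOX12, PLA2R1, PLAT, C1R, CD14, SLC14A1, EDN1, ZEB1 and AGR2. Of these, CYRIA, TNFAIP2, FERMT1, ENSBTAG00000015493, CCL20, CSF3, TNFRSF9, ALOX12, PLA2R1, PLAT, C1R, CD14, SLC14A1, EDN1, ZEB1 and AGR2 did not pass without the block.

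Chemokines that bind neutrophil receptors showed the highest fold changes of any named group. CXCL5, CXCL2, CXCL3, GRO1 and CXCL8 encode CXC chemokines that attract neutrophils, and 5 of these 5 were raised, with log2 fold changes of 4.55 to 9.17 (median 8.03). The study had listed all 5 for the bESCs only, although its discussion describes high expression of CXC chemokines with rbCAPG in both cell types. CXCL5 was at 15.4, 18.3 and 25.1 CPM in the VC samples of animals 1, 2 and 3 and at 6748, 2704 and 9398 CPM with rbCAPG, a log2 fold change of 8.14 ± 0.64 (SE, adjusted p = 9.83e-06). Every rbCAPG sample stood more than 2 orders of magnitude above its own VC sample. CXCL2 was at 0.635, 1.09 and 0.598 CPM with VC and at 940.2, 284 and 387 CPM with rbCAPG, a log2 fold change of 9.17 ± 0.67 (adjusted p = 6.53e-06). CXCL3 was at 0.906, 2.24 and 2.09 CPM with VC and at 589, 376 and 459.8 CPM with rbCAPG, a log2 fold change of 8.03 ± 0.69 (adjusted p = 1.93e-05).

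GRO1, the bovine gene of a growth-related CXC chemokine, was at 1.03, 3.59 and 1.50 CPM with VC and at 498, 379 and 306 CPM with rbCAPG, a log2 fold change of 7.62 ± 0.67 (adjusted p = 2.09e-05). Because reads with several matches were divided among genes, CXCL2, CXCL3 and GRO1, which are closely related in sequence, may share reads, and their separate levels are uncertain. CXCL8, chosen after its values were seen, began from unequal levels of 116, 6.85 and 4.34 CPM with VC and reached 678, 234 and 387 CPM with rbCAPG, a log2 fold change of 4.55 ± 0.80 (adjusted p = 0.00725). The VC sample of animal 1 was the high one, and the groups still did not overlap. In this group 4 of 5 genes passed without the VC sample of animal 3 and 4 of 5 without the block.

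**Figure D2:**
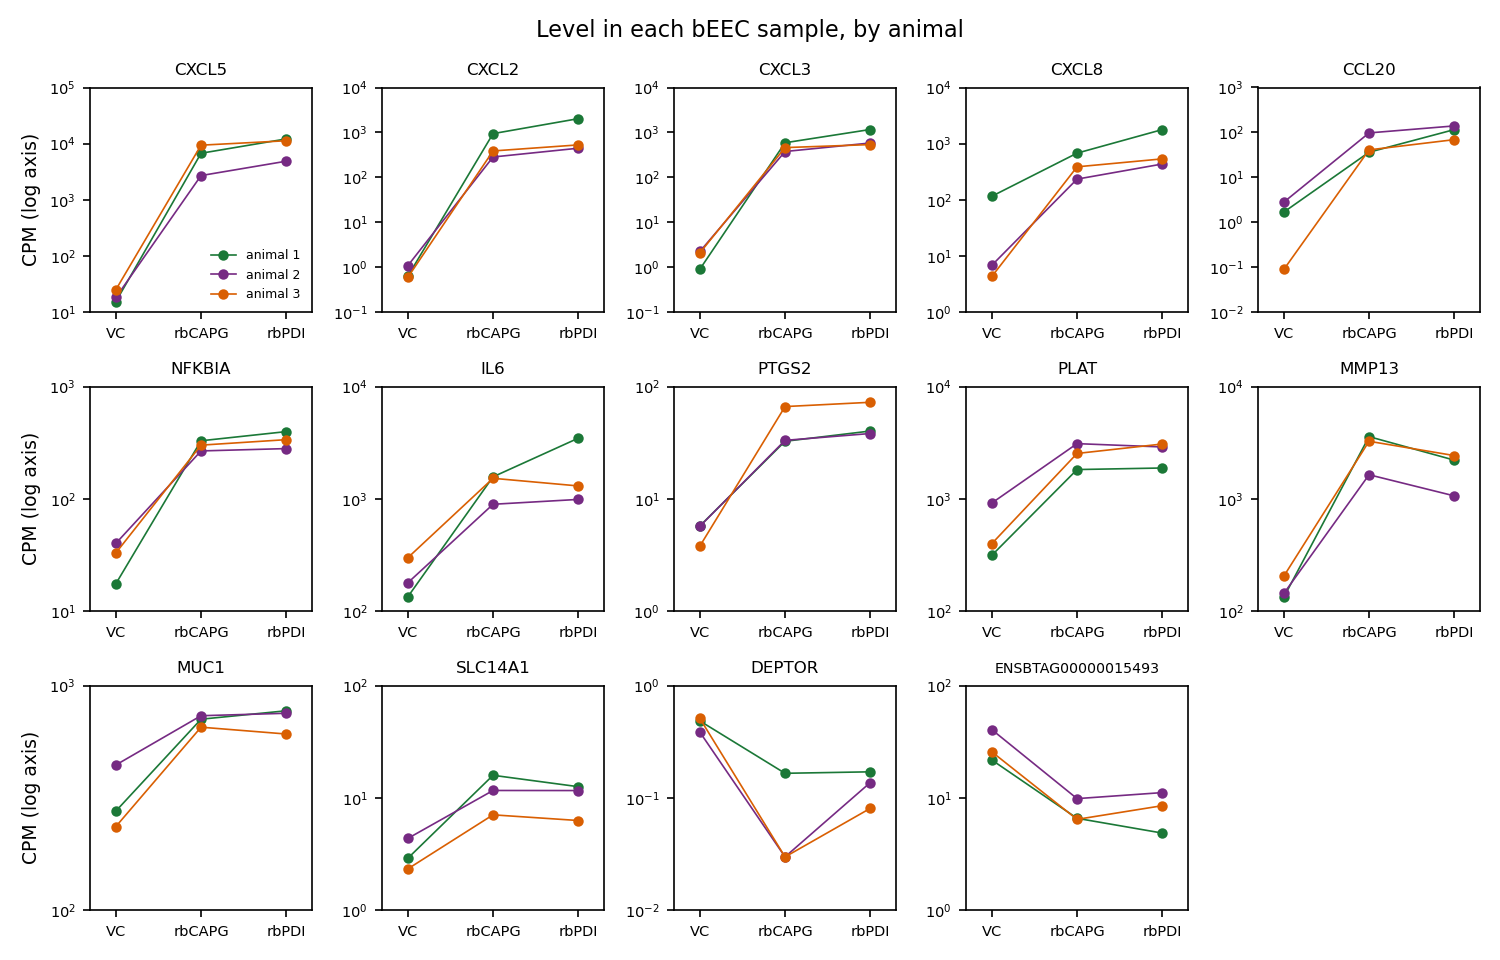
Level in CPM on a log axis of 14 genes in each bEEC sample with VC, rbCAPG or rbPDI, with 1 line for each animal and an axis range of its own in each panel. The 12 raised genes are higher with rbCAPG than with VC in all 3 animals (CXCL5 from 15.4 to 25.1 CPM up to 2704 to 9398 CPM), and DEPTOR and ENSBTAG00000015493 are lower in all 3.

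Chemokines for other leukocytes were raised too. Of 6 such chemokines and receptors tested, 5 were raised, with a median log2 fold change of 3.16, and 3 were raised without the VC sample of animal 3. CX3CL1, a membrane-bound chemokine for monocytes and lymphocytes, had 2 counts over the 3 VC samples and 271 counts with rbCAPG, a ratio of 145 after scaling (95% exact counting interval 39.8 to 1200, adjusted p = 0.000136). CCL20, which attracts dendritic cells and lymphocytes through CCR6, was at 1.69, 2.82 and 0.0897 CPM with VC and at 36.3, 97.6 and 40.9 CPM with rbCAPG, a log2 fold change of 5.46 ± 0.71 (adjusted p = 0.000666). The low VC value of animal 3 rested on 3 counts. CCL5, which attracts T cells and monocytes, was at 4.74, 6.88 and 4.28 CPM with VC and at 56.7, 72.2 and 121 CPM with rbCAPG, a log2 fold change of 3.97 ± 0.56 (adjusted p = 0.00128). CXCL16 was the member that did not pass, with 288, 535 and 321 CPM against 1154, 846 and 573 CPM (log2 fold change 1.13 ± 0.33, adjusted p = 0.0988).

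Among cytokines and their receptors and decoys, 8 of 10 genes were raised and none lowered, with a median log2 fold change of 2.42, or 2.00 with the gene that had no VC count at its bound. CSF3, the granulocyte colony-stimulating factor, was at 0.121, 0.0640 and 0 CPM with VC and at 3.35, 4.08 and 2.80 CPM with rbCAPG, a log2 fold change of 5.75 ± 0.54 (adjusted p = 0.000106). TNFRSF9, a costimulatory receptor of the tumour necrosis factor family, was at 0.665, 0.704 and 0.538 CPM with VC and at 4.34, 7.87 and 10.6 CPM with rbCAPG, a log2 fold change of 3.58 ± 0.43 (adjusted p = 0.000289). The groups were far apart for both genes, from few counts for CSF3 (4, 2 and 0 with VC). IL18R1, which binds interleukin 18, was at 0.272, 0.576 and 0.269 CPM with VC and at 0.827, 1.34 and 1.67 CPM with rbCAPG, a log2 fold change of 1.77 ± 0.28 (adjusted p = 0.00353).

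The same group held genes that dampen interleukin 1 signalling, while IL1A, IL1B and IL1R1 had no known identifier. IL1RN, the interleukin 1 receptor antagonist, had a log2 fold change of 1.49 ± 0.25 (adjusted p = 0.00555) and IL1R2, a decoy receptor, of 2.22 ± 0.46 (adjusted p = 0.0191), both named after their values were seen. IL6, likewise named afterwards, was at 134, 179 and 299 CPM with VC and at 1569.8, 894 and 1523 CPM with rbCAPG, a log2 fold change of 2.62 ± 0.65 (adjusted p = 0.0464). The 2 members that did not pass were IL37 and TNFSF15. IL37, an anti-inflammatory member of the interleukin 1 family, had no count with VC and 2, 12 and 12 with rbCAPG. Its mean level was at least 2.89-fold higher against a floor of 3 counts in each VC library. The rbCAPG sample of animal 1 was itself under that floor, and the gene did not pass the test (adjusted p = 0.16). TNFSF15, a tumour necrosis factor family ligand, was at 132, 208 and 347 CPM with VC and at 169, 203 and 262 CPM with rbCAPG (log2 fold change -0.04 ± 0.49, adjusted p = 0.993). The group had 4 raised genes without either sample of animal 3 and 1 without the block. The latter was IL18R1 (adjusted p = 0.0492), so IL1RN, IL1R2 and IL6 did not pass there. The calls of IL1RN, IL1R2 and IL6 were not examined gene by gene with samples left out.

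Among genes of the NF-kB pathway with a known identifier, subunit genes were raised and, by larger factors, feedback inhibitors. NFKB1 and NFKB2 encode the precursors of the p50 and p52 subunits and MAP3K8 encodes a kinase bound to the NFKB1 product, and 3 of these 3 were raised. They were the only members with a known identifier of 8 subunits and kinases looked for. RELA, RELB and REL were not among them, so the count does not describe the subunits as a whole. NFKB1 was at 28.0, 33.8 and 30.3 CPM with VC and at 51.8, 71.1 and 78.1 CPM with rbCAPG, a log2 fold change of 1.11 ± 0.22 (adjusted p = 0.0171). NFKB2 was at 29.3, 27.6 and 24.1 CPM with VC and at 59.9, 71.7 and 76.9 CPM with rbCAPG, a log2 fold change of 1.35 ± 0.27 (adjusted p = 0.0169). In both genes the groups were well apart and the spread within groups was small. Both calls were nevertheless lost whenever any 1 of the 6 samples was left out (adjusted p up to 0.158), and both held without the block (adjusted p = 0.0449 and 0.0397). MAP3K8 was at 0.906, 0.256 and 0.329 CPM with VC and at 2.77, 2.15 and 1.97 CPM with rbCAPG, a log2 fold change of 2.29 ± 0.34 (adjusted p = 0.00209), and it held in each such fit.

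Of 8 feedback and survival genes, 7 were raised, with a median log2 fold change of 2.28, and the same number was raised with any 1 of the 6 samples left out. NFKBIA, the inhibitor that binds NF-kB in the cytoplasm, was at 17.6, 40.2 and 33.0 CPM with VC and at 329, 267 and 301 CPM with rbCAPG, a log2 fold change of 3.32 ± 0.30 (adjusted p = 2.62e-05). NFKBIZ, a nuclear inhibitor-like protein that also acts as a coactivator, was at 13.1, 19.4 and 16.7 CPM with VC and at 60.5, 80.4 and 81.6 CPM with rbCAPG, a log2 fold change of 2.18 ± 0.19 (adjusted p = 1.93e-05). Each rbCAPG sample lay above every VC sample for all 8 genes. ZC3H12A, a ribonuclease that degrades cytokine transcripts, was at 2.96, 3.55 and 2.81 CPM with VC and at 21.9, 17.2 and 22.3 CPM with rbCAPG, a log2 fold change of 2.70 ± 0.23 (adjusted p = 1.99e-05). TNFAIP2, a gene induced by tumour necrosis factor, had a log2 fold change of 3.11 ± 0.32 (adjusted p = 7.98e-05) and did not pass without the block (0.0767). TNFAIP3, which encodes the ubiquitin-editing enzyme A20, and BIRC3, an inhibitor of apoptosis, both named after their values were seen, had log2 fold changes of 2.28 ± 0.25 and 2.28 ± 0.27. The remaining member, IER3, an early response survival gene, did not pass. It was at 725, 996 and 1466 CPM with VC and 3469, 2647 and 2133 CPM with rbCAPG, with no overlap (log2 fold change 1.37 ± 0.37, adjusted p = 0.0723).

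Of the immune surface molecules, 5 of 7 were raised, and CD40, a costimulatory receptor, had the smallest p-value among them. It was at 11.9, 6.76 and 12.6 CPM with VC and at 61.7, 54.0 and 53.7 CPM with rbCAPG, a log2 fold change of 2.46 ± 0.22 (adjusted p = 2.62e-05). CD200, which restrains myeloid cells, was at 15.5, 17.4 and 22.2 CPM with VC and at 32.7, 34.1 and 44.3 CPM with rbCAPG, a log2 fold change of 1.02 ± 0.19 (adjusted p = 0.00951). SELP, an adhesion molecule of platelets and endothelium, was at 2.96, 3.62 and 1.47 CPM with VC and at 12.8, 11.1 and 15.5 CPM with rbCAPG and did not pass (log2 fold change 2.22 ± 0.58, adjusted p = 0.0621). Of the 7 genes, 2 were raised without either sample of animal 3 or without the rbCAPG sample of animal 2, and 1 was raised without the block. The call of CD200 was lost without either sample of animal 3, without the VC sample of animal 1 or the rbCAPG sample of animal 2 (adjusted p up to 0.0793, log2 fold changes down to 0.94) and without the block (0.0981).

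Among complement and innate recognition genes, 7 of 7 were raised, with a median log2 fold change of 2.17, and 3 were raised without the VC sample of animal 3. C1R and C1S, the proteases that start the classical complement cascade, were low in bEECs. C1R was at 0.242, 0.768 and 0.269 CPM with VC and at 1.32, 1.76 and 2.26 CPM with rbCAPG, a log2 fold change of 2.11 ± 0.32 (adjusted p = 0.00211). C1S was at 0.393, 0.704 and 0.299 CPM with VC and at 1.98, 1.49 and 2.95 CPM with rbCAPG, a log2 fold change of 2.17 ± 0.37 (adjusted p = 0.00582). Both are far more abundant in VC bESCs, at 103 to 231 CPM and 204 to 481 CPM, and the part of stromal RNA in their change was not tested. CD14, the coreceptor for bacterial lipopolysaccharide, was at 8.70, 6.82 and 5.80 CPM with VC and at 21.4, 27.0 and 32.5 CPM with rbCAPG, a log2 fold change of 1.91 ± 0.29 (adjusted p = 0.00241), which is above its level in VC bESCs (4.35 to 18.3 CPM). CLEC1A, a C-type lectin receptor, had no count with VC and 3, 17 and 38 with rbCAPG. Its mean level was thus at least 6.38-fold higher against 3 counts in each VC library (adjusted p = 0.0125). The call of CLEC1A was lost without either sample of animal 3 (adjusted p up to 0.105), and so was that of C1S (up to 0.0611).

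The list of prostaglandin, eicosanoid and nitric oxide genes had 4 of 5 raised and a median log2 fold change of 2.65. PTGS2, the inducible cyclooxygenase that makes prostaglandin precursors, was at 5.74, 5.70 and 3.80 CPM with VC and at 32.5, 33.2 and 66.3 CPM with rbCAPG, a log2 fold change of 3.00 ± 0.42 (adjusted p = 0.0013). ALOX12, a lipoxygenase, was at 0.846, 1.41 and 0.778 CPM with VC and at 4.18, 4.71 and 2.59 CPM with rbCAPG, a log2 fold change of 1.94 ± 0.28 (adjusted p = 0.00189). The groups were apart for both genes, and both calls held with any 1 of the 6 samples left out. Without the block PTGS2 passed (adjusted p = 0.0106) and ALOX12 did not (0.257), and 1 gene of the list was raised. PLA2R1, a phospholipase A2 receptor, was at 0.272, 0.993 and 0.598 CPM with VC and at 0.744, 7.16 and 4.94 CPM with rbCAPG, a log2 fold change of 2.65 ± 0.40 (adjusted p = 0.00224). Its groups overlapped, because the rbCAPG sample of animal 1 lay below the VC sample of animal 2. NOS2, the inducible nitric oxide synthase, had 1 count with VC and 25 with rbCAPG, a ratio of 26.8 (95% exact counting interval 4.38 to 1100), and did not pass (adjusted p = 0.243).

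Of the plasminogen system, in which PLAT and PLAU activate plasminogen and PLAUR binds PLAU at the cell surface, 2 of these 3 genes were raised. PLAT was at 315, 918 and 399.7 CPM with VC and at 1822, 3100.0 and 2535 CPM with rbCAPG, a log2 fold change of 2.29 ± 0.28 (adjusted p = 0.000408), and held with any 1 of the 6 samples left out. PLAUR was at 459.7, 553 and 637 CPM with VC and at 2056, 1246 and 1374 CPM with rbCAPG, a log2 fold change of 1.43 ± 0.35 (adjusted p = 0.0481). All 3 genes had every rbCAPG sample above every VC sample, PLAU included, which was at 1106, 1013 and 1357 CPM with VC and at 5099, 2706 and 3939 CPM with rbCAPG (log2 fold change 1.69 ± 0.44, adjusted p = 0.0588). The call of PLAUR was lost without any 1 of the 6 samples (adjusted p up to 0.233), and 0 of the 3 genes passed without the block, at adjusted p-values of 0.0539 for PLAT, 0.223 for PLAUR and 0.155 for PLAU.

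In the list of matrix proteases and related genes, 5 of 12 members had a known identifier. Of these 5, 4 were raised, 2 collagenases among them, against 142 of all 190 named genes. MMP13 was at 134, 144 and 205 CPM with VC and at 3579, 1639 and 3254 CPM with rbCAPG, a log2 fold change of 4.05 ± 0.88 (adjusted p = 0.025). MMP1 was at 37.7, 27.8 and 25.0 CPM with VC and at 194, 135 and 169.7 CPM with rbCAPG, a log2 fold change of 2.46 ± 0.54 (adjusted p = 0.0265). The bEEC groups did not overlap. In VC bESCs, MMP13 was at most at 1.51 CPM, below all VC bEEC samples, while MMP1 was at 3.92 to 50.0 CPM, a range that overlapped with VC bEECs. Both calls were nevertheless lost whenever any 1 of the 6 samples was left out (adjusted p up to 0.158 for MMP13 and 0.19 for MMP1) and without the block (0.112 and 0.115). ADAMTSL5, a secreted protein related to the ADAMTS proteases that lacks the protease domain, was at 7.16, 10.8 and 6.91 CPM with VC and at 13.6, 23.9 and 22.1 CPM with rbCAPG, a log2 fold change of 1.23 ± 0.22 (adjusted p = 0.00936), and lost its call without the rbCAPG sample of animal 1, without either sample of animal 3 (adjusted p up to 0.0791) and without the block (0.112). ADAMTS5, an aggrecanase, was at 0.604 to 0.736 CPM with VC and at 1.16 to 1.67 CPM with rbCAPG and did not pass (adjusted p = 0.107). None of the 5 genes was raised without the rbCAPG sample of animal 1, without either sample of animal 3 or without the block.

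Matrix proteins and enzymes of glycosaminoglycan metabolism gave 6 raised genes of 10, and all 10 had every rbCAPG sample above every VC sample (median log2 fold change 1.50). BPNT2, a Golgi phosphatase needed for the sulfation of glycosaminoglycans, was at 56.3, 46.8 and 42.8 CPM with VC and at 105, 84.3 and 109 CPM with rbCAPG, a log2 fold change of 1.03 ± 0.19 (adjusted p = 0.00855). PCOLCE2, an enhancer of procollagen processing, was at 4.35, 7.56 and 3.11 CPM with VC and at 11.7, 13.5 and 11.8 CPM with rbCAPG, a log2 fold change of 1.35 ± 0.25 (adjusted p = 0.0105). PCOLCE2 was higher in VC bESCs, at 79.0 to 133 CPM. CHI3L2, a chitinase-like protein, had 1 count with VC and 43 with rbCAPG, a ratio of 46 (95% exact counting interval 7.83 to 1860, adjusted p = 0.0239). NID1, a basement membrane protein, was at 0.755, 1.60 and 0.419 CPM with VC and at 2.77, 1.82 and 2.80 CPM with rbCAPG and did not pass (adjusted p = 0.0613). No gene of the group was raised without the VC sample of animal 1 or without either sample of animal 3, and 1 was raised without the block or with samples scaled by library size only.

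Of 14 genes of epithelial transport, 10 were raised, against 142 of all 190 named genes, with a median log2 fold change of 1.87. SLC14A1, a urea transporter, was at 2.90, 4.35 and 2.33 CPM with VC and at 15.9, 11.6 and 7.06 CPM with rbCAPG, a log2 fold change of 1.81 ± 0.29 (adjusted p = 0.00424), and held with any 1 of the 6 samples left out. ABCA3, a lipid transporter, was at 15.8, 19.1 and 19.9 CPM with VC and at 34.3, 78.2 and 70.6 CPM with rbCAPG, a log2 fold change of 1.64 ± 0.31 (adjusted p = 0.0112). Several other members of the group were barely transcribed with VC. CFTR, the chloride and bicarbonate channel of secretory epithelia, had 9 counts with VC and 58 with rbCAPG, a ratio of 6.9 (95% exact counting interval 3.4 to 15.8, adjusted p = 0.0166). ASIC3, an acid-sensing ion channel, had 2 counts with VC and 97 with rbCAPG, a ratio of 51.9 (14 to 435, adjusted p = 0.0286), and SLC35F3 had 3 and 84, a ratio of 30 (9.91 to 148, adjusted p = 0.0213).

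The zinc transporter SLC39A14 and the organic anion transporter SLCO4A1, both listed for the bESCs only, did not pass. SLC39A14 was at 3.57 to 6.10 CPM with VC and at 4.46 to 6.68 CPM with rbCAPG (log2 fold change 0.32 ± 0.19, adjusted p = 0.53), and SLCO4A1 had overlapping values (-0.04 ± 0.52, adjusted p = 0.992). ABCC2 was at or under 3 counts in all 6 samples. Of the 14 transport genes, 1 was raised without either sample of animal 3 or the VC sample of animal 2 and 0 without the block, where adjusted p-values were 0.073 for SLC14A1, 0.121 for ABCA3, 0.0539 for CFTR, 0.245 for ASIC3 and 0.116 for SLC35F3.

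At the apical surface, MUC1, the membrane mucin that lines the lumen, was at 276, 443 and 236 CPM with VC and at 708, 734 and 652 CPM with rbCAPG, a log2 fold change of 1.17 ± 0.29 (adjusted p = 0.0444). The groups were apart, but the call was lost whenever any 1 of the 6 samples was left out (adjusted p up to 0.265). GJB6, a gap junction protein, was at 0.0302, 0.320 and 0.299 CPM with VC and at 0.579, 1.67 and 1.55 CPM with rbCAPG, a log2 fold change of 2.60 ± 0.48 (adjusted p = 0.00943). OCLN, the tight junction protein occludin, was at 85.6, 105 and 89.3 CPM with VC and at 100.4, 91.4 and 118 CPM with rbCAPG, overlapping values with a log2 fold change of 0.14 ± 0.38 (adjusted p = 0.954). Of the 6 junction and surface genes, 3 were raised, and 0 were raised without the VC sample of animal 3. AGR2, a protein disulfide isomerase of mucus-secreting cells, was at 203, 852 and 339.6 CPM with VC and at 3341, 3241 and 2048 CPM with rbCAPG, a log2 fold change of 2.80 ± 0.41 (adjusted p = 0.00199). Its call held with any 1 of the 6 samples left out but not without the block (adjusted p = 0.0775).

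Of 7 angiogenic and vasoactive genes, 6 were raised, with a median log2 fold change of 1.98, and 1 was raised without the VC sample of animal 3. EDN1, which encodes the vasoconstrictor endothelin 1, was at 33.8, 42.2 and 35.2 CPM with VC and at 208, 103 and 149.5 CPM with rbCAPG, a log2 fold change of 1.97 ± 0.30 (adjusted p = 0.00216), and held with any 1 of the 6 samples left out. RAMP3, an accessory protein of the adrenomedullin receptor, had 5 counts with VC and 121 with rbCAPG, a ratio of 25.9 (95% exact counting interval 10.8 to 81.2, adjusted p = 0.00458). The endothelial receptor TEK and its ligand ANGPT1 were both raised from low levels. ANGPT1 was at 0.121, 0.256 and 0.179 CPM with VC and at 0.537, 1.55 and 1.22 CPM with rbCAPG, a log2 fold change of 2.54 ± 0.46 (adjusted p = 0.00928), and TEK was at 0.0302, 0.128 and 0.0598 CPM and at 0.413, 0.865 and 0.477 CPM, a log2 fold change of 2.97 ± 0.72 (adjusted p = 0.0445). The call of TEK was lost without any 1 of the 6 samples (adjusted p up to 0.215), and 0 of the 7 genes passed without the block, at 0.0787 for EDN1, 0.0674 for RAMP3, 0.0838 for ANGPT1 and 0.0993 for TEK.

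Transcription factors were divided, with 8 of 15 raised and 7 that did not pass. The number raised was 3 without the rbCAPG sample of animal 1 or with samples scaled by library size only, and 1 without the block. RIPPLY3, a transcriptional corepressor, had 1 count with VC and 117 with rbCAPG, a ratio of 125 (95% exact counting interval 22 to 4990, adjusted p = 0.000984). NFE2L3, a basic leucine zipper factor, was at 29.2, 27.7 and 26.8 CPM with VC and at 50.2, 83.7 and 97.2 CPM with rbCAPG, a log2 fold change of 1.43 ± 0.23 (adjusted p = 0.00349). KLF9, a Krüppel-like factor known as a progesterone receptor partner in the uterus, had 1 count with VC and 30 with rbCAPG, a ratio of 32.1 (5.34 to 1310, adjusted p = 0.0426), and lost its call without any 1 of the 6 samples (adjusted p up to 0.231). The factors that did not pass include IRF1, an interferon-response factor, at 35.1, 47.6 and 55.1 CPM with VC and 42.1, 61.5 and 64.6 CPM with rbCAPG (log2 fold change 0.29 ± 0.26, adjusted p = 0.752), and HNF4G, at 12.2 to 14.6 CPM and 12.1 to 21.1 CPM (0.30 ± 0.36, adjusted p = 0.838). ARNTL2 was at or under 3 counts in all 6 samples. No identifier was known for any of the 10 interferon-stimulated genes looked for, so they were not analysed here.

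In the phosphoinositide 3-kinase and mTOR list, 7 of 8 genes were raised and 1 was lowered, with modest sizes (median log2 fold change 1.20). PIK3R5, a regulatory subunit of phosphoinositide 3-kinase gamma, was at 2.21, 2.15 and 2.54 CPM with VC and at 5.29, 5.07 and 9.08 CPM with rbCAPG, a log2 fold change of 1.44 ± 0.25 (adjusted p = 0.00616). PIK3AP1, an adaptor that recruits the kinase, was at 25.1, 15.1 and 18.7 CPM with VC and at 39.5, 33.5 and 48.2 CPM with rbCAPG, a log2 fold change of 1.05 ± 0.18 (adjusted p = 0.00699). The lowered gene was DEPTOR, which encodes an inhibitor of mTOR. All 8 had been listed by the study for this comparison, so their directions are not independent evidence. No gene of the list was raised without either sample of animal 3 or without the block, where the adjusted p-values were 0.085 for PIK3R5 and 0.149 for PIK3AP1. Of the antioxidant enzymes, GPX3 was raised (15.7, 70.1 and 58.5 CPM against 144, 115 and 162 CPM, log2 fold change 1.70 ± 0.37, adjusted p = 0.0246). Its call was lost without either sample of animal 1 or of animal 3 (adjusted p up to 0.124) and without the block (0.216). GPX2 passed the p-value but not the fold limit (117, 163 and 114 CPM against 291, 323 and 180.2 CPM, log2 fold change 1.00 ± 0.23, adjusted p = 0.0389).

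**Figure D3:**
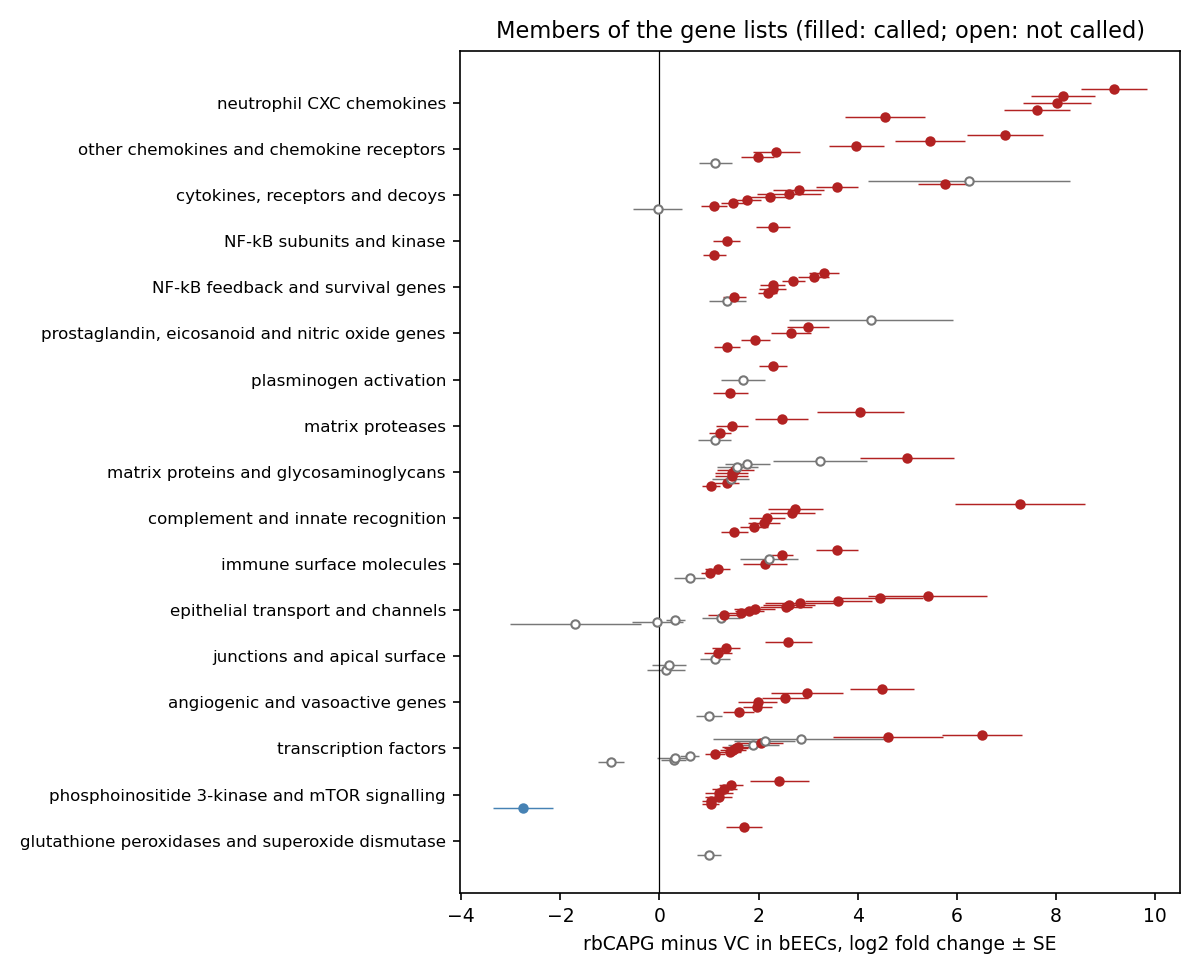
Log2 fold change between rbCAPG and VC bEECs, with its SE as a bar, of each tested member of 17 gene lists, with genes called raised in red, the 1 called lowered in blue and genes not called as open circles. The neutrophil chemokines lie between 4.55 and 9.17, and most other lists have medians between 1 and 3. Fitted values of genes with no VC count, such as CLEC1A, depend on the prior count and are no bounds.

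Other strongly changed genes lay outside these lists. PLEKHS1, a pleckstrin homology domain protein, was at 5.11, 6.85 and 9.96 CPM with VC and at 58.4, 70.6 and 101 CPM with rbCAPG, a log2 fold change of 3.40 ± 0.35 (adjusted p = 8.93e-05). CYRIA, a regulator of Rac-driven actin remodelling, was at 13.4, 13.8 and 7.09 CPM with VC and at 56.1, 60.1 and 34.0 CPM with rbCAPG, a log2 fold change of 2.15 ± 0.19 (adjusted p = 2.14e-05). FERMT1, the epithelial kindlin that activates integrins, was at 20.3, 16.1 and 17.0 CPM with VC and at 58.3, 41.7 and 49.3 CPM with rbCAPG, a log2 fold change of 1.48 ± 0.16 (adjusted p = 0.000101). All 3 calls held with any 1 of the 6 samples left out. Without the block PLEKHS1 passed (adjusted p = 0.0301), while CYRIA (0.16) and FERMT1 (0.0583) did not. The smallest p-values of all belonged to genes without a known symbol. ENSBTAG00000049589 was at 0.453, 2.11 and 1.44 CPM with VC and at 1573, 2642 and 2441 CPM with rbCAPG, a log2 fold change of 10.83 ± 0.69 (adjusted p = 3.28e-06), and ENSBTAG00000001321 had 3 counts with VC and 3846 with rbCAPG, a ratio of 1370 (95% exact counting interval 469 to 6660, adjusted p = 3.28e-06).

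The 27 lowered genes were fewer and had smaller median changes. Their number depended on single samples, with 3 lowered without the rbCAPG sample of animal 3, 5 without the VC sample of animal 1, 7 without the rbCAPG sample of animal 1, 7 without the VC sample of animal 3 and 25 without either sample of animal 2. Their summed level was 812, 613 and 1018 CPM in the VC samples of animals 1, 2 and 3 and 341, 253 and 380 CPM with rbCAPG, so the groups did not overlap. Of the 27, 16 were at least 8-fold lower in VC bESCs than in VC bEECs, against 7.91% of all genes tested, and 0 were at least 8-fold higher there. The VC bEEC samples enter both the call and this ratio, so these shares are a description only. DEPTOR, the mTOR inhibitor, was at 0.483, 0.384 and 0.508 CPM with VC and at 0.165, 0.0298 and 0.0298 CPM with rbCAPG, that is 16, 12 and 17 counts against 4, 1 and 1, a log2 fold change of -2.75 ± 0.61 (adjusted p = 0.0275). Its rbCAPG samples all lay below its VC samples, but it kept its call only without the rbCAPG sample of animal 1 (adjusted p up to 0.2 with another sample left out).

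The firmest lowered gene had no symbol. ENSBTAG00000015493 was at 21.7, 40.4 and 25.6 CPM with VC and at 6.57, 9.84 and 6.43 CPM with rbCAPG, a log2 fold change of -1.91 ± 0.22 (adjusted p = 0.000199), and held with any 1 of the 6 samples left out. ENSBTAG00000019470 was at 117, 110.1 and 143 CPM with VC and at 48.0, 73.1 and 56.0 CPM with rbCAPG, a log2 fold change of -1.07 ± 0.18 (adjusted p = 0.00565), and lost its call without either sample of animal 1 or the rbCAPG sample of animal 3 (adjusted p up to 0.0653). Neither gene passed without the block (adjusted p = 0.143 and 0.323). The genes that passed in that fit were all raised.

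Because the bEECs were enriched and not purified, transcripts of bESCs were followed as well. Of 17 stromal markers, 8 had a known identifier, and 7 of these were raised with rbCAPG. Their summed level was 15.3 to 28.8 CPM in VC bEECs, 39.5 to 78.2 CPM in rbCAPG bEECs, 32.1 to 71.1 CPM in rbPDI bEECs and 421 to 446 CPM in VC bESCs, and none of the 8 was at 0 in any bEEC sample. ZEB1, a repressor of epithelial genes, was at 1.60, 2.72 and 2.33 CPM with VC and at 3.47, 5.52 and 12.6 CPM with rbCAPG, a log2 fold change of 1.54 ± 0.24 (adjusted p = 0.00257), against 21.7 to 44.4 CPM in VC bESCs. FGFR1, a fibroblast growth factor receptor, was at 3.60, 5.03 and 4.76 CPM with VC and at 8.43, 9.18 and 17.4 CPM with rbCAPG, a log2 fold change of 1.31 ± 0.25 (adjusted p = 0.0127), against 50.2 to 57.2 CPM. HAND2 and VCAN, a stromal transcription factor and a proteoglycan named after their values were seen, had log2 fold changes of 2.05 ± 0.45 (adjusted p = 0.0261) and 1.46 ± 0.33 (adjusted p = 0.0342). All 8 had been listed by the study for this comparison, so their count is not independent evidence. Of the 8, 1 was raised without either sample of animal 1, without the VC sample of animal 3 or with samples scaled by library size only, and 0 without the block.

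A broader list used neither the study's choice nor the bEEC samples compared. The 159 genes with at least 10 CPM in every VC bESC sample and a mean at least 32-fold above that of rbPDI bEECs summed, in VC bEECs, to 0.802%, 1.64% and 1.09% of the VC bESC mean in animals 1, 2 and 3, and to 1.94%, 1.26% and 2.37% with rbCAPG. They were higher with rbCAPG in animals 1 and 3 and lower in animal 2, and the groups overlapped. Of these genes, 7 (4.4%) were raised and 0 lowered, their median log2 fold change was 0.67 against 0.02 over all genes, and 87.4% lay above 0 against 52.6%. Choosing genes against rbPDI bEECs leaves out genes that both proteins raise, and choosing them against VC bEECs instead favours genes low there. The 242 genes of that choice summed to 0.54%, 1.18% and 0.837% with VC and to 6.81%, 3.12% and 8.74% with rbCAPG, with no overlap, and 36 of them were raised. CXCL5 and CXCL2 are among these genes. In animals 1, 2 and 3, CXCL5 alone held 6748, 2704 and 9398 CPM of the rbCAPG sums of 10377, 4753 and 13322 CPM. The rise of this sum thus rests largely on that chemokine, and the sum of the other genes was not examined. Of the 365 raised genes, 101 (27.7%) were at least 8-fold higher in VC bESCs than in VC bEECs, against 9.22% of all genes tested, and 79 (21.6%) were at least 8-fold lower there, against 7.91%. These shares too rest on the VC bEEC samples that enter the call, and the part of stromal RNA in the raised genes was not tested. Among leukocyte and endothelial markers, 4 of 10 had an identifier, and AIF1, CD14 and TEK were raised while SELP did not pass, with 1 raised without the rbCAPG sample of animal 1 and 0 without the block. Their summed level was 15.7 to 24.8 CPM in VC bEECs and 57.9 to 74.4 CPM in rbCAPG bEECs. It was 121 to 219 CPM in VC bESCs and 336 to 652 CPM in rbCAPG bESCs, so the list as a whole was higher in stromal cells. The part of leukocytes, endothelial cells or stromal RNA in this change was not tested. AIF1, known from macrophages, was at 4.02, 14.2 and 12.7 CPM with VC and at 23.3, 30.6 and 25.9 CPM with rbCAPG (log2 fold change 1.51 ± 0.27, adjusted p = 0.0138) and at 0 in the 3 VC bESC samples, and it lost its call without the rbCAPG sample of animal 1 (adjusted p = 0.0744).

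**Figure D4:**
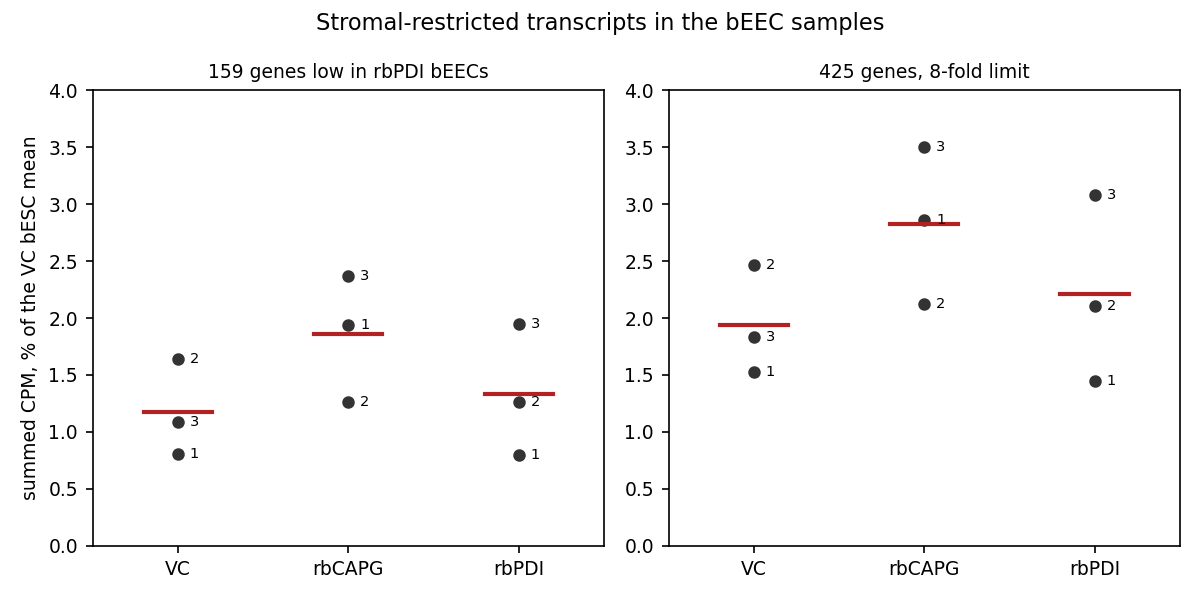
Summed CPM of stromal-restricted genes in each bEEC sample, as a percentage of the mean of the VC bESC samples, with a point for each animal (number beside it) and a red bar for the group mean. The left panel holds the 159 genes chosen at a 32-fold limit and the right panel the 425 genes at an 8-fold limit, both chosen against rbPDI bEECs, whose level is therefore partly fixed. Animals 1 and 3 are higher with rbCAPG than with VC and animal 2 is lower, in both panels.

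The change with rbCAPG was then compared between the cell types of the same devices, with each cell type set against its own VC samples. In bESCs, 84 genes were raised (0.468% of 17931) and 2 were lowered (0.0112%), and 38 genes were raised in both cell types, which is 10.4% of those raised in bEECs and 45.2% of those raised in bESCs. The difference between the changes itself passed the test for 34 genes with a higher log2 fold change in bEECs (0.19%) and 6 with a higher one in bESCs (0.0335%), where the sign counts and not the size. Of the 34, 33 were raised in bEECs and 3 in bESCs, with a median log2 fold change of 3.01 in bEECs and 0.29 in bESCs. The count of 40 fell to 10 without the bEEC samples of animal 1, to 12 without the block, and to 11, 12, 14, 18, 21 and 22 without, in that order, the VC and the rbCAPG bEEC sample of animal 3, the VC bEEC sample of animal 1, the rbCAPG bESC sample of animal 1, and the rbCAPG bEEC samples of animals 2 and 1.

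CXCL5, CXCL2 and CXCL3 started from higher levels in VC bESCs than in VC bEECs and changed by less there. CXCL5 was at 3665, 8609 and 1946 CPM in VC bESCs and at 18532, 21864 and 19389 CPM in rbCAPG bESCs, a log2 fold change of 2.24 ± 0.49 against 8.14 ± 0.64 in bEECs (difference 5.91 ± 0.72, adjusted p = 0.00346). With rbCAPG the bEECs still lay below the bESCs of the same animal. CXCL2 changed from 62.4, 39.0 and 18.5 CPM to 672, 1137 and 1067 CPM in bESCs, with a difference of 4.51 ± 0.72 between cell types (adjusted p = 0.0208), and the difference for CXCL3 was 4.83 ± 0.78 (adjusted p = 0.0212). GRO1 changed by 3.83 ± 0.57 in bESCs, and its difference of 3.80 ± 0.76 did not pass (adjusted p = 0.0742). CXCL8 was at 93.9, 114 and 38.5 CPM in VC bESCs, which overlapped with VC bEECs, and its difference was 0.87 ± 1.02 (adjusted p = 1). The difference of CXCL5 held with any 1 bEEC sample left out, and that of CXCL2 did not (adjusted p up to 0.1). Those of CXCL3, GRO1 and CXCL8 were not examined with samples left out.

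A second set of genes was raised in bEECs with values near or below 0 in bESCs. PLAT had a log2 fold change of -0.10 ± 0.27 in bESCs (334, 304 and 803 CPM with VC and 340.1, 336 and 591 CPM with rbCAPG), a difference of 2.38 ± 0.38 (adjusted p = 0.0208). EDN1 had one of -0.64 ± 0.30 in bESCs, a difference of 2.62 ± 0.42 (adjusted p = 0.0208), and SLC14A1 one of -0.82 ± 0.27, a difference of 2.63 ± 0.40 (adjusted p = 0.0174). None of these 3 changes in bESCs passed the test. The difference was lost for PLAT without any bEEC sample other than the VC sample of animal 2 (adjusted p up to 0.0963), and for EDN1 and SLC14A1 without either bEEC sample of animal 1 or of animal 3 (up to 0.0983 and 0.0719). Without the block it did not pass for any of the 3 (0.687 for PLAT, 0.517 for EDN1 and 0.258 for SLC14A1). The reverse pattern was seen for VEPH1, a pleckstrin homology domain protein, at 3.51, 7.75 and 4.85 CPM in VC bEECs and 1.53, 4.68 and 3.51 CPM in rbCAPG bEECs but at 0.220 to 0.330 CPM in VC bESCs and 1.09 to 4.19 CPM in rbCAPG bESCs (difference -3.64 ± 0.48, adjusted p = 0.00445). TNFSF15 was also raised in bESCs (3.94 ± 0.57) and not in bEECs, a difference of -3.98 ± 0.73 (adjusted p = 0.0445).

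**Figure D5:**
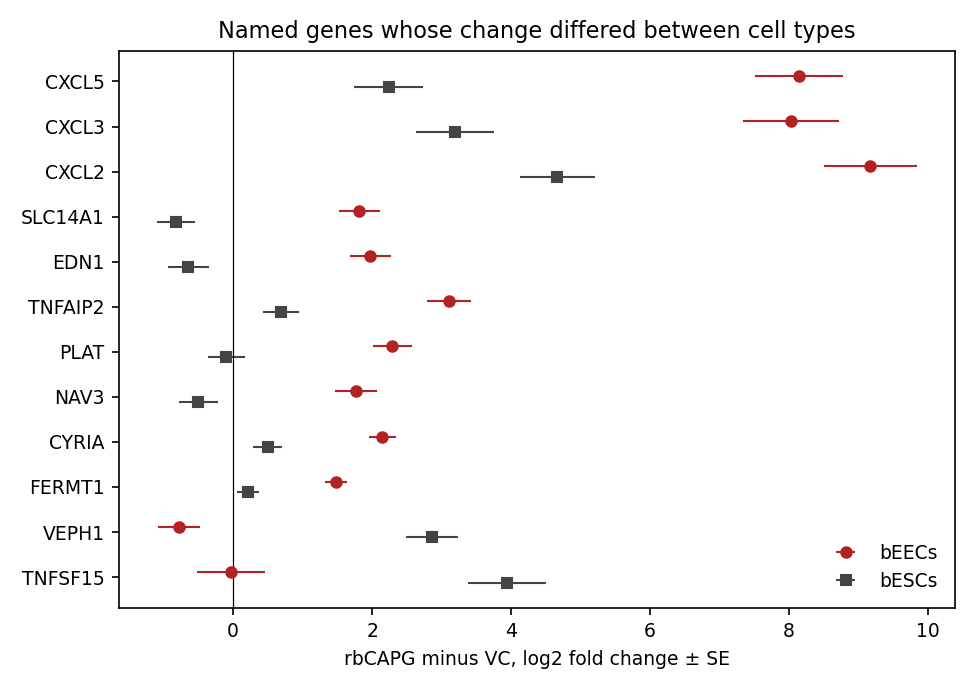
Log2 fold change with rbCAPG in bEECs (red circles) and in bESCs (dark squares), each against its own VC samples and with its SE as a bar, of the 12 named genes whose change differed between the cell types. CXCL5, CXCL2 and CXCL3 are positive in both cell types and larger in bEECs (8.14 against 2.24 for CXCL5), and VEPH1 and TNFSF15 are positive in bESCs alone.

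The response was finally set against that to rbPDI, a protein disulfide isomerase that the conceptus also secretes and that is unrelated to CAPG in structure, at the same dose and time. The direct comparison of rbCAPG with rbPDI bEECs gave 0 genes higher with rbCAPG (0%) and 0 higher with rbPDI (0%) with edgeR. DESeq2 also gave 0. With edgeR, 333 of 17931 genes had an unadjusted p-value below 0.05. That share is itself below 0.05, so the p-values ran high, and 0 calls do not show equal responses. Of the 365 raised genes, 40 had an unadjusted p-value below 0.05 in this comparison, and 241 of the 365 were lower with rbCAPG than with rbPDI. The raised genes had a median log2 fold change against VC of 1.91 with rbCAPG and 1.99 with rbPDI, and the lowered genes of -1.53 and -1.46, but these values share the VC samples. Between the proteins, the median difference over the 365 raised genes, which were chosen with the rbCAPG samples, was -0.12 (quartiles -0.37 to 0.07), with a median SE of 0.31 for a single gene. The 3 rbCAPG samples all lay above the 3 rbPDI samples for 4 of the 365 genes (2.32% over all genes tested) and all below for 32 (2.14%).

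For single genes the intervals leave room for differences that the test did not call. CXCL5 differed by -0.64 on the log2 scale (rbCAPG minus rbPDI, 95% interval -1.65 to 0.36), NFKBIA by -0.18 (-0.76 to 0.41), PLAT by -0.09 (-0.67 to 0.48) and MUC1 by -0.02 (-0.62 to 0.58). The widest gap among the named chemokines was that of CCL5, at 56.7, 72.2 and 121 CPM with rbCAPG and at 566, 261 and 263 CPM with rbPDI, values that did not overlap. Its difference was -2.10 ± 0.52 (-3.21 to -0.98, adjusted p = 1). CD40 was at 61.7, 54.0 and 53.7 CPM with rbCAPG and at 112.9, 81.1 and 68.7 CPM with rbPDI, a difference of -0.61 (-1.06 to -0.16), and TNFRSF9 at 4.34, 7.87 and 10.6 CPM and at 25.4, 14.6 and 12.7 CPM, a difference of -1.19 (-1.98 to -0.40). In the other direction KLF9 was at 0.248, 0.209 and 0.506 CPM with rbCAPG and at 0.0426, 0.0341 and 0.0805 CPM with rbPDI, a difference of 2.55 (0.66 to 4.45), from 30 counts over the 3 rbCAPG samples. None of these passed the adjustment over all genes (adjusted p = 1 for each).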

How the data were processed

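RNA was sequenced from bEECs and bESCs of the endometrium-on-a-chip with VC, rbCAPG or rbPDI (n = 3 animals in each of 6 groups), and samples were grouped by their labels. The libraries came from a SMART-Seq kit, which does not mark strand. The authors used Trimmomatic for trimming, STAR for alignment to the bovine assembly ARS-UCD1.3, and featureCounts with the Ensembl annotation. The deposited values are estimated counts that are not normalized, for 36075 genes, since a read that matched several places or genes was split into fractions by the authors, and 23.3% of values were not whole. Related, overlapping and antisense genes can therefore share reads. All 18 columns of the table were used (0 left out).

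Counts were rounded and analysed in R 4.3.3. edgeR 4.0.16 kept 17931 genes (filterByExpr) and applied TMM scaling and the quasi-likelihood F-test over the full set of 18 samples, fitting group means and the animal within cell type as a block (8 residual and 5.7 prior degrees of freedom, biological coefficient of variation 0.244). P-values were adjusted over all tested genes (Benjamini-Hochberg), and a call required an adjusted p-value below 0.05 together with a change of over 2-fold, that is 1 on the log2 scale. SEs are the absolute log2 fold change divided by the square root of F. Intervals of ratios are exact binomial ones and, like the floor of 3 counts, cover counting error only. An exact permutation test of a single gene, at 3 against 3, cannot reach a p-value of 0.05.

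Replicate numbers stand for animals, per the study's methods. Deviations from the group means correlated at r = 0.368, 0.444 and 0.311 between VC and rbCAPG bEEC samples of the same animal (across genes) and at -0.309 to -0.0503 between animals. Centring on the mean of 3 samples pushes the values between animals below 0, so they are no separate evidence of pairing. No 2 bEEC libraries of the same group, VC or rbCAPG, agreed within sampling noise. Counts were simulated from the fitted dispersions, with 200 of 17931 genes changed, all with a mean VC bEEC level of at least 1 CPM. The test of rbCAPG against VC recovered 95% of genes changed by 2 and 100% of those changed by 3 on the log2 scale, with 10 false calls. Changes below 2 and changes of genes under 1 CPM were not simulated. Of the 365 raised genes, 194 had a log2 fold change under 2 and 130 a mean VC level under 1 CPM, so these rates do not cover them.

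Members and gene lists were chosen with earlier results of these data known. Symbols came from 190 identifiers in the study's lists of genes altered by rbCAPG. Only 3 of 12 epithelial, 8 of 17 stromal and 4 of 10 leukocyte and endothelial markers therefore had a name. Named were the 12 raised genes with the smallest p-values and the 8 with the largest fold changes among those with a symbol, the lowered genes with a symbol, the 2 raised and 2 lowered genes without one with the smallest p-values, up to 3 called and 2 uncalled members of each list, list members at or under 3 counts in all VC samples, and up to 5 genes in each direction of the cell type difference. Others are said to be named after their values were seen. For 3 genes the results are not reported here, and their values are left out of the lists. Alternatives were no block, DESeq2 1.42.0, other scalings, filters, thresholds and sample sets, unrounded counts and each sample left out, and 2 were added after seeing the data (no animal 1 bEEC samples, no shallowest library).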

Additional observations from a re-analysis of the deposited data

Results flagged for a closer look

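The change with rbCAPG differed between bEECs and bESCs, by a test of the difference itself, for 14 of the genes named in the text (log2 fold change in bEECs minus that in bESCs, edgeR with adjustment over all genes). The difference was 5.91 for CXCL5, 4.51 for CXCL2, 4.83 for CXCL3, 1.65 for CYRIA, 2.42 for TNFAIP2, 1.27 for FERMT1, 2.38 for PLAT, 2.63 for SLC14A1 and 2.62 for EDN1, all higher in bEECs. It was 8.02 for ENSBTAG00000001321 and 7.57 for ENSBTAG00000049589, also higher in bEECs. It was -3.98 for TNFSF15 and -3.64 for VEPH1, higher in bESCs. It was -3.82 for ENSBTAG00000015493, which fell by 1.91 in bEECs and had a value of 1.90 in bESCs that did not pass (adjusted p = 0.335). That value rests on levels near 0, at 0.132, 0.0206 and 0 CPM in VC bESCs and 0.410, 0.0928 and 0.0461 CPM in rbCAPG bESCs. The difference for CXCL5 (adjusted p = 0.00346) passed in each alternative run for it, and that for VEPH1 (adjusted p = 0.00445) passed with any 1 bEEC sample left out but neither without the block (0.116) nor without the bEEC samples of animal 1 (0.0584). The difference for CXCL2 (adjusted p = 0.0208) was lost without any bEEC sample other than the VC sample of animal 2 (up to 0.1), and that for TNFSF15 (adjusted p = 0.0445) without any 1 of the 6 bEEC samples compared (up to 0.204). The group size of 3 is too small for a test of single outlying samples.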

How the results depend on the processing

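The count of 392 genes called between rbCAPG and VC bEECs became 92 with no replicate block, that is without the pairing of samples by animal, 673 with DESeq2 and the block (609 raised), 261 with samples scaled by library size only, 613 in the 9 bEEC samples, 582 in the 6 samples compared, 337 with at least 10 counts in 9 samples, 525 with no filter, 502 with no fold limit, 88 with a test against a 2-fold change, and 124 without the bEEC samples of animal 1, an alternative chosen after seeing the data. Leaving out 1 sample gave 146 to 370. The count of 40 genes that differed between cell types became 12 with no replicate block, 271 with DESeq2, 104 with no filter and 10 without the bEEC samples of animal 1, and ran from 11 to 41 with 1 sample left out. The count between rbCAPG and rbPDI was 0 in every fit run, that with no block included. The mean stromal-restricted sum in rbCAPG bEECs was 1.86% of the VC bESC mean, 2.83% with the 8-fold limit, 6.22% when genes were chosen against VC bEECs, which favours genes raised by either protein while the choice against rbPDI bEECs leaves out those raised by both, and 1.45% with library size only. The causes of the other shifts were not tested. The direction reversed only for 3 genes that were not called: SLCO4A1 (-0.2994 to 0.2357 with 1 sample left out, 0.2559 without the bEEC samples of animal 1), TNFSF15 (-0.2142 to 0.1754) and ARNTL2 (-0.4509 to 3.819, from 2 counts). Depth limits the genes near 3 counts, where ratios have wide intervals.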
